A study of Oryza sativa with 6 samples.

Results

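The chitinase family of rice was followed in shoot apices of dsl1, a rice mutant of short stature and narrow leaves whose affected gene encodes a histone deacetylase, and of wild type (WT). The members are the genes whose symbol or synonym in the rice gene reference follows a chitinase naming scheme (CH, Cht, Chia or Chib3H, with or without a leading Os). The reference holds 14 such genes, and 8 of them were measured by a transcript cluster paired with exactly 1 gene, out of 15140 genes measured in this way. A transcript cluster is a group of array probes read as 1 transcript. The other 6 genes, Cht4, Cht6, Cht9, Cht10, Cht12 and the gene listed as Cht-2 or RC7, had no such cluster and were not analysed here. Each of the 8 measured members had 1 cluster.

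Both groups are shoot apices holding the meristem and the youngest leaf primordia, dissected under a microscope at the emergence of a young leaf from soil-grown plants. There were 3 dsl1 samples and 3 WT samples, each on 1 single-colour array. Neither the nature of the dsl1 allele nor the age of the plants in days is given in the sources used here, and nothing says that the samples came from separate batches of plants. All levels are the authors' deposited log2 values, so that a difference of 1 is a doubling.

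Chitinases cut chitin, the polymer of fungal cell walls and insect cuticle, which plants do not make. Many are secreted or vacuolar proteins counted among the pathogenesis-related proteins, and the fragments they release are detected by LysM receptors at the plant cell surface. Plant chitinases fall into classes: classes I, II and IV share one catalytic fold, while class III has another, and some proteins with the class III fold are no chitinases but inhibitors of microbial xylanases. The names of the rice genes carry the class, so that OsChia1a, OsChia1c and OsChia1d are class I, OsChia2a is class II, OsChia4a is class IV and the Chib3H genes are class III.

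The family was singled out because its levels differed between dsl1 and WT in these same arrays. The values of that comparison are therefore a description of the 8 genes and no test of them. In 7 of the 8 genes the mean log2 level was higher in dsl1, against 45.7% of all 54922 clusters. The median difference over the 8 genes was 0.98 on the log2 scale, against -0.029 over all clusters. In 4 of the 8 the difference was above 1, against 1.11% of all clusters. The 3 dsl1 values lay wholly above the 3 WT values in 5 of the 8, against 9.15% of all clusters. In limma with Benjamini-Hochberg adjustment over all clusters, 0 of the 8 passed an adjusted p of 0.05, a threshold passed by 0.0255% of all clusters, and 6 of the 8 had an unadjusted p under 0.05 on the higher side, against 6.06% of all clusters. Over the 15140 genes in place of all clusters, the median difference was 0.019, 53% were higher, 1.35% had a difference above 1, 15% had dsl1 values wholly above the WT values and 9.46% were higher at an unadjusted p under 0.05. On the lower side the count of members was 0 of 8, against 5.7% of all clusters at an unadjusted p under 0.05 and 10.2% with the 3 dsl1 values wholly below. In a fit of only the 15829 clusters paired with 1 gene, 1 of the 8, CH16, passed as higher (limma adjusted p = 0.0251), against 0.373% of those clusters, and an adjusted p of 0.124 over all clusters.

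The arrays themselves were not equally separated by genotype. WT replicate 3 correlated over all clusters at 0.9752 on average with its own genotype and at 0.9759 with dsl1, while each of the other 5 arrays was closer to its own genotype. Differences without WT replicate 3 are therefore given beside the main ones. The class I KNOX genes OSH1, OSH15 and OSH71, which mark the shoot meristem, averaged 4.88 to 5.40 on the log2 scale over the dsl1 arrays and 4.76 to 5.01 over the WT arrays. They were higher in dsl1 in 3 of 3 cases, against 53% of all genes, by 0.57 for OSH71, 0.35 for OSH15 and 0.15 for OSH1. Over all clusters limma passed 0 of these 3, and for OSH71 and OSH15 the p before adjustment was 0.0332 and 0.0425. Such a p under 0.05 on the higher side was reached by 9.46% of all genes. Only OSH15 was free of overlap between the groups. For OSH71, dsl1 replicate 1 (4.42) lay below WT replicate 1 (4.50). For OSH1, dsl1 replicate 1 (4.63) lay below all WT values. Those YABBY-family genes of leaf primordia that were found by name and measured, 6 in number, averaged 6.42 to 6.65 in dsl1 and 6.50 to 6.78 in WT. Of these 5 were lower and 1 higher in dsl1, with a median difference of -0.12 and 0 at an unadjusted p under 0.05. The part of these markers in the chitinase values was not tested.

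The class I genes held both the largest and the smallest difference of the family. CH16, a class I chitinase also listed as Cht1, OsChia1a and RC24 (LOC4342115), had log2 levels of 7.51, 8.25 and 6.90 in dsl1, against 4.50, 4.82 and 5.17 in WT. Every dsl1 value lay above every WT value, with a gap of 1.73 between the lowest dsl1 array and the highest WT array. The mean was 2.72 higher in dsl1 (SE 0.348), a 6.61-fold difference, and 2.90 higher without WT replicate 3. The smallest difference with 1 array left out was 2.38, without dsl1 replicate 2. Only 9 of the 15140 genes had a larger positive difference.

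CH6, a class I chitinase also listed as Cht3 and OsChia1c (LOC4342114), stood at 7.23, 7.69 and 6.22 in dsl1, against 4.22, 4.78 and 5.61 in WT. The groups did not overlap, but dsl1 replicate 3 and WT replicate 3 lay only 0.61 apart. The difference of the means was 2.18 (SE 0.463), a 4.53-fold difference, and 2.55 without WT replicate 3. With 1 array left out it was smallest at 1.86, without WT replicate 1 or without dsl1 replicate 2.

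CH6 and CH16 are next to each other in the rice reference assembly ASM3414082v1, with 0 annotated genes between them. Their array values were alike too, but the family was chosen for its difference between genotypes over these same arrays. The distances given next are largely set by that difference. They were ranked only against genes with a common name, not against all 15140 genes. With each gene centred on its own mean over the 6 arrays, the root-mean-square distance between CH6 and CH16 was 0.364, against 0.542 between CH6 and Cht2 and 0.684 between CH16 and Cht2, and 0 of 1723 other genes with a common name lay nearer to either. No sequence of the probes or transcripts was used here, so how far the probes of one gene also read the other was not tested.

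Chia1d, a class I chitinase also listed as Cht7 (LOC4338720), gave log2 levels of 4.50, 4.04 and 4.38 in dsl1, against 4.29, 4.28 and 4.41 in WT. The WT values lay inside the range of the dsl1 values. The difference was -0.020 (SE 0.156), and its sign turned to 0.0177 after quantile normalisation, to 0.0239 without WT replicate 3 and to 0.112 without dsl1 replicate 2. In the reference assembly Chia1d lies directly beside Cht9, and the gene listed as Cht-2 or RC7 lies on the other side of Cht9, but neither was measured.

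Cht2 here is the class II gene also listed as Cht8 and OsChia2a (LOC4349267), and not the class I gene that shares the synonym Cht2. Its log2 levels were 7.95, 7.14 and 6.89 in dsl1, against 5.31, 4.74 and 6.12 in WT. The groups did not overlap, with a gap of 0.78, and WT replicate 3 was again the highest WT array. The mean was 1.94 higher in dsl1 (SE 0.402), a 3.83-fold difference, and 2.30 higher without WT replicate 3. The smallest difference with 1 array left out was 1.61, without WT replicate 2.

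Cht5, a class IV chitinase also listed as OsChia4a (LOC4336265), had levels of 7.24, 6.98 and 6.76 in dsl1, against 5.09, 7.36 and 5.27 in WT. The dsl1 arrays lay close together (SD 0.236), while WT replicate 2 was above all of them and the remaining WT arrays were well below (SD 1.26). The difference of the means was 1.09 (SE 0.573), and it was 1.82 without WT replicate 2, 0.68 without WT replicate 1 and 0.77 without WT replicate 3. The size of the difference of Cht5 therefore rested on single WT arrays.

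**Figure D1:**
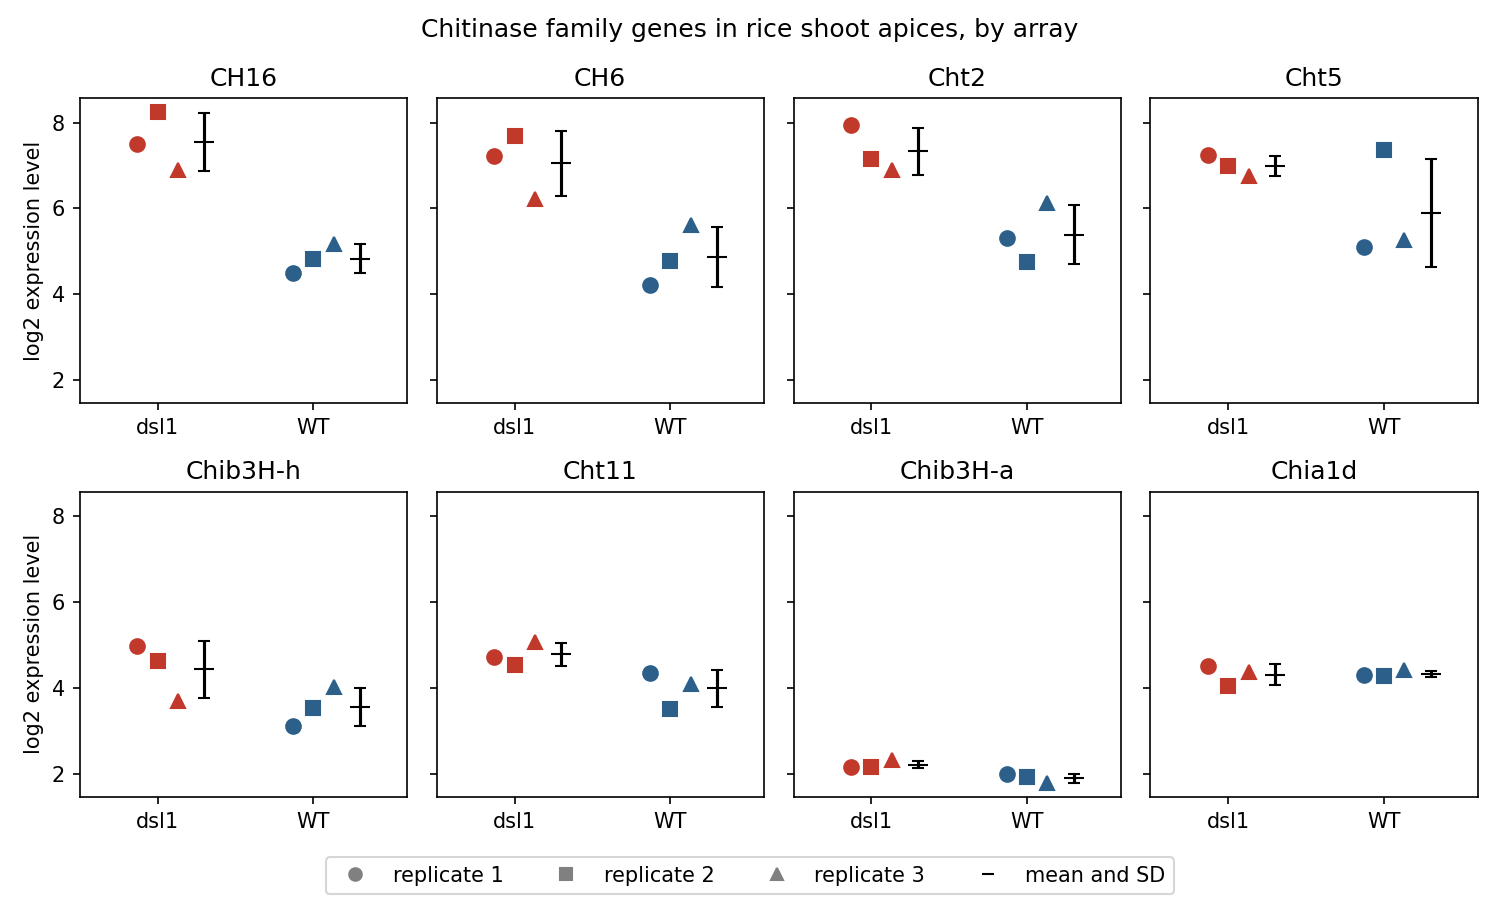
Log2 expression level (vertical axis) of the 8 chitinase family genes on each array, dsl1 left and WT right in every panel; symbols give the replicate and the black bars the mean and SD of 3 arrays. CH16, CH6 and Cht2 are separated by genotype with gaps of 1.73, 0.61 and 0.78, WT replicate 2 of Cht5 lies at 7.36, above the dsl1 values, and the Chia1d values of the genotypes overlap.

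Of the class III genes, Chib3H-h (LOC4351187) had log2 levels of 4.97, 4.62 and 3.69 in dsl1, against 3.12, 3.52 and 4.02 in WT. The groups overlapped, since dsl1 replicate 3 lay below WT replicate 3. The mean was 0.87 higher in dsl1 (SE 0.368), and 1.10 higher without WT replicate 3. With 1 array left out the difference was smallest at 0.60, without dsl1 replicate 1.

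Chib3H-a, also listed as RIXI and XIP-I, names of xylanase inhibitors (LOC4351194), stood at 2.16, 2.16 and 2.31 in dsl1, against 1.98, 1.92 and 1.78 in WT. The groups did not overlap, but all 6 values lie below 2.81, the average level of the lowest when clusters are split by brightness into 5 groups of equal size. The difference was 0.32 (SE 0.127), and 0.26 without WT replicate 3, and at this brightness its size is uncertain. In the reference assembly 4 annotated genes lie between Chib3H-h and Chib3H-a.

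Cht11 (LOC4331519), a family member whose class the names do not give, had levels of 4.73, 4.54 and 5.08 in dsl1, against 4.35, 3.50 and 4.10 in WT. The dsl1 values lay above the WT values with a gap of 0.19. The mean was 0.80 higher in dsl1 (SE 0.251), and 0.86 higher without WT replicate 3. With 1 array left out the difference was smallest at 0.56, without WT replicate 2. Here dsl1 replicate 3 was the highest dsl1 array, unlike in CH16, CH6, Cht2, Cht5 and Chib3H-h, where it was the lowest.

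**Figure D2:**
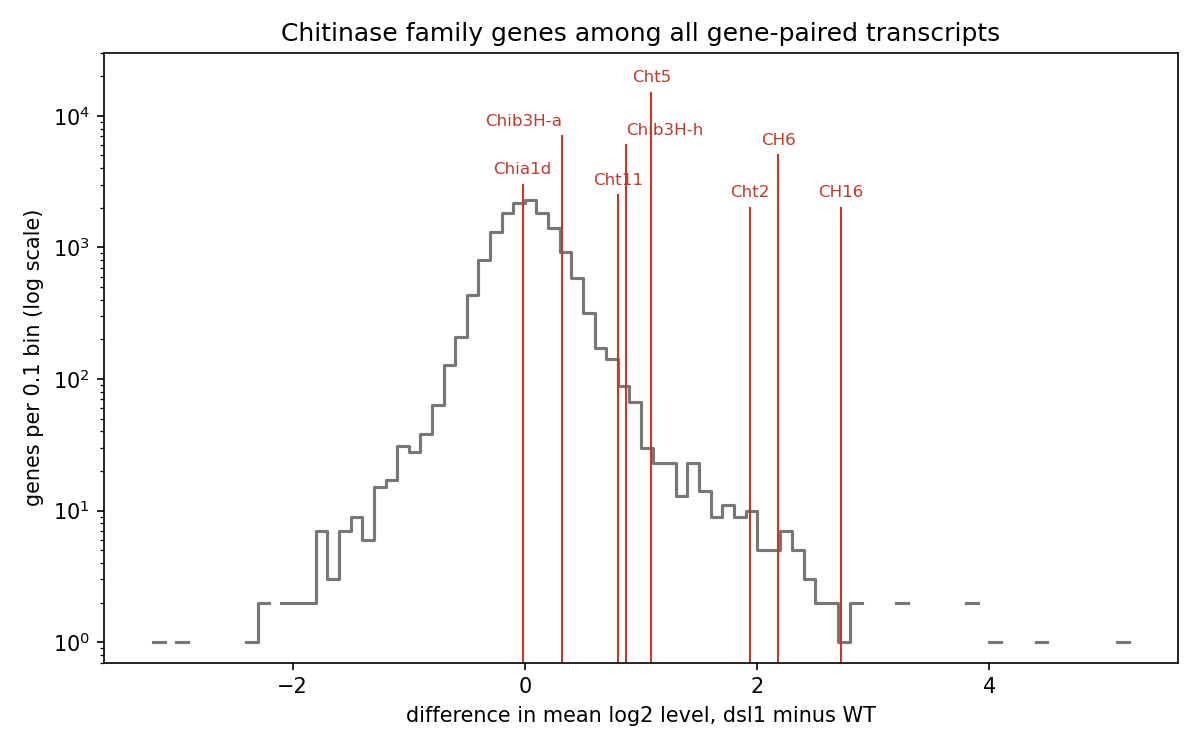
Difference in mean log2 level, dsl1 minus WT (horizontal axis), for all 15140 measured genes as a count per 0.1 bin (grey steps, log scale), with the 8 chitinase family genes as red lines whose heights carry no value. CH16, CH6 and Cht2 lie in the right tail at 2.72, 2.18 and 1.94, Cht5, Chib3H-h and Cht11 between 0.80 and 1.09, Chib3H-a at 0.32 and Chia1d at -0.020.

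The order of arrays within each genotype was counted over the members only. How often each array was highest or lowest among all genes was not counted, so no trait of the family is read from it. Over all clusters, WT replicate 3 correlated at 0.9759 with dsl1 and at 0.9752 with its own genotype. Among the dsl1 arrays, replicate 3 was the lowest for 5 of the 8 genes, and replicate 1 the highest for 4. Among the WT arrays, replicate 3 was the highest for 5 of the 8, namely CH16, CH6, Cht2, Chib3H-h and Chia1d. With each gene centred on its mean over 6 arrays, the average of CH16, CH6 and Cht2 was 1.39, 1.52 and 0.50 in dsl1 replicates 1, 2 and 3, against -1.49, -1.39 and -0.54 in the WT replicates. The third replicates of both genotypes thus lay nearest to the middle.

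The genes with a common name whose array values were most like those of the 3 leading members were taken by the smallest root-mean-square distance of centred log2 values over the 6 arrays, from 1723 candidates. For CH16 they were JAMYB, a jasmonate-inducible MYB factor, at 0.436, LIS, a linalool synthase that makes a volatile terpene, at 0.481, and MPH1, a MYB transcription factor, at 0.568. For CH6 they were LIS at 0.394, MPH1 at 0.458 and HSF10, a heat stress transcription factor also listed as SPL7, at 0.487. For Cht2 they were AOX1, the alternative oxidase of mitochondrial respiration, at 0.500, SWEET2B, of a sugar transporter family and also listed as MtN3-like, at 0.518, and LIS at 0.528.

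LIS was in all 3 sets. Its log2 levels were 6.39, 6.99 and 6.59 in dsl1, against 4.07, 4.46 and 5.29 in WT. MPH1 was at 7.35, 8.80 and 7.28 in dsl1, against 5.90, 5.67 and 6.63 in WT. These genes were chosen for their likeness over the same 6 arrays, so that higher values in dsl1 and the place of WT replicate 3 were largely set by the choice. None of these named genes passed limma over all clusters.

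**Figure D3:**
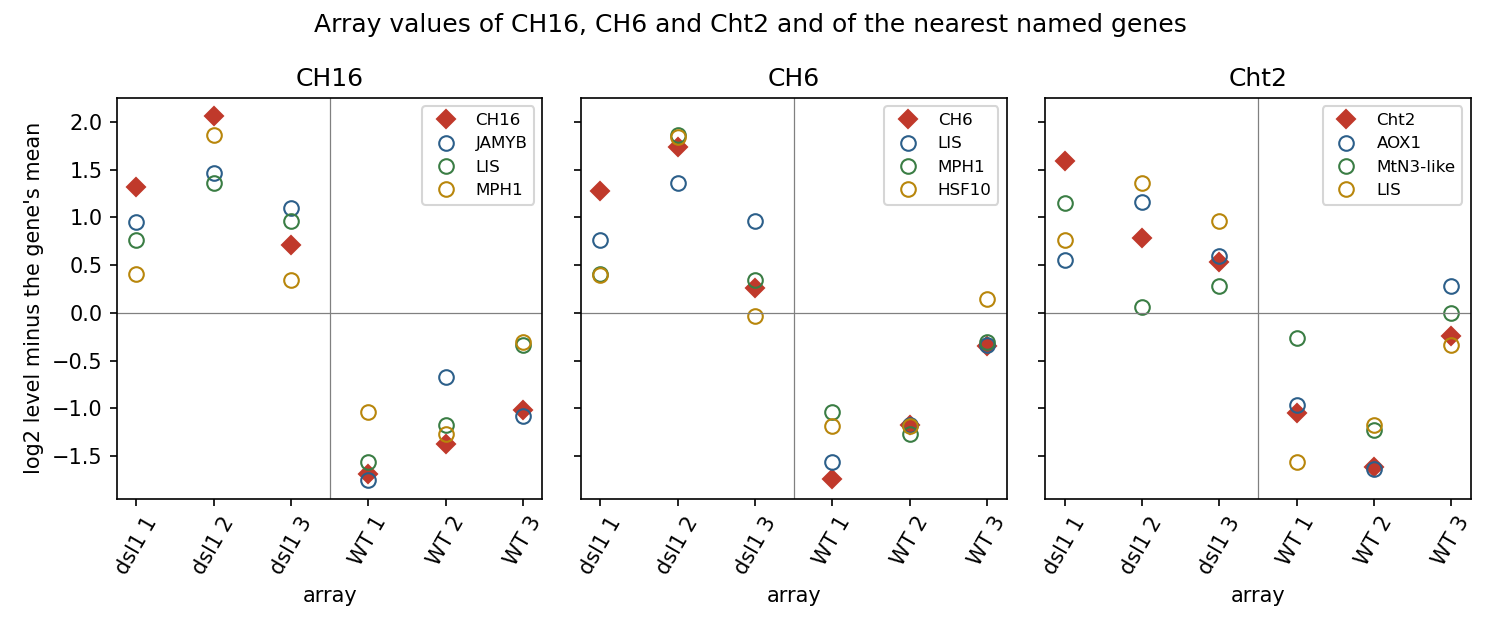
Log2 level minus the gene's own mean over 6 arrays (vertical axis) on each array (horizontal axis, dsl1 left, WT right) for CH16, CH6 and Cht2 (red diamonds) and for the 3 named genes nearest to each (open circles). In all 3 panels the WT replicate 3 value of the chitinase is the WT value nearest to 0, and LIS appears in each.

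Other genes of chitin signalling and defence were taken from lists chosen by name. The chitin perception list holds 5 genes, all named here. Of them 3 were higher, against 53% of all genes, and 2 lower in dsl1. By limma 0 passed over all clusters and 0 had an unadjusted p under 0.05. Their median difference was 0.023, and its sign was not stable. It was -0.027 after quantile normalisation, and -0.046 without dsl1 replicate 2 to 0.098 without dsl1 replicate 1. CEBIP, the LysM receptor-like protein that binds chitin, was at 7.89, 7.58 and 6.83 in dsl1, against 6.51, 7.57 and 6.52 in WT, a difference of 0.57 (SE 0.375, limma adjusted p = 0.591). CERK1, the receptor kinase that acts with CEBIP, differed by 0.023 (SE 0.139) and LYP4, another LysM receptor-like protein, by 0.16 (SE 0.154). RBOHB, an NADPH oxidase of the oxidative burst, differed by -0.48 (SE 0.229, limma adjusted p = 0.468), and Rac1, a small GTPase of rice immunity, by -0.11 (SE 0.136).

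The defence regulators, transcription factors, kinases and salicylate signalling genes, numbered 11. Of these 7 were higher, against 53% of all genes, and 4 lower. Their median was 0.072, which was -0.112 without WT replicate 1, 0.012 without WT replicate 2 and 0.217 without WT replicate 3. By limma 0 passed over all clusters and 0 had an unadjusted p under 0.05. WRKY71, a WRKY transcription factor of defence, was at 7.88, 7.24 and 7.90 in dsl1, against 5.92, 7.39 and 7.20 in WT, a difference of 0.84 (SE 0.403, limma adjusted p = 0.472). NH2, an NPR1-like gene of salicylate signalling, differed by -0.25 (SE 0.129) and SGT1, a co-chaperone of immune receptors, by 0.24 (SE 0.144). The groups overlapped for WRKY71, since WT replicate 2 lay above dsl1 replicate 2.

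Among proteins that plants make in defence besides chitinases, the 5 cystatins, inhibitors of cysteine proteases, had a median difference of 0.071, which was -0.019 without dsl1 replicate 2 and 0.123 without dsl1 replicate 3, with OC-III at 0.32 (SE 0.155), OC-VI at -0.34 (SE 0.208) and OC-I at 0.14 (SE 0.219), and 0 passing in limma or at an unadjusted p under 0.05. The list of 11 other defence proteins and enzymes had a median of 0.14 (0.233 without WT replicate 3 and 0.235 without dsl1 replicate 3). Of them 9 were higher, against 53% of all genes, and 2 lower. By limma 0 passed over all clusters. An unadjusted p under 0.05 on the higher side was reached by 2, against 6.06% of all clusters and 9.46% of all genes. Enzymes inside the cell, PAL, LOX2, LOX1.1 and CM-LOX1, are in this list, so it is no set of secreted proteins only. LOC4344277, listed as a peroxidase, was at 8.23, 7.02 and 7.06 in dsl1, against 5.17, 4.17 and 6.63 in WT, a difference of 2.11 (SE 0.629, limma adjusted p = 0.327). LTP, a lipid-transfer protein, was at 10.18, 10.01 and 9.80 in dsl1, against 8.80, 9.57 and 8.77 in WT, a difference of 0.95 (SE 0.242, limma adjusted p = 0.284). In both genes the dsl1 values lay above all WT values. PRX74, a peroxidase, differed by 0.28 (SE 0.216) and LTP2-A, another lipid-transfer protein, by 0.044 (SE 0.247).

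Over these 4 lists together, 22 of 32 genes were higher, against 53% of all genes, and 10 lower. Their median was 0.10 on the log2 scale, against 0.019 over all genes. The dsl1 values lay wholly above the WT values in 2 of the 32, against 9.15% of all clusters and 15% of all genes, and wholly below in 1, NH2, against 10.2% and 9.33%. Whether the chitinases differed more than these lists was not tested, since the family was chosen for its difference.

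**Figure D4:**
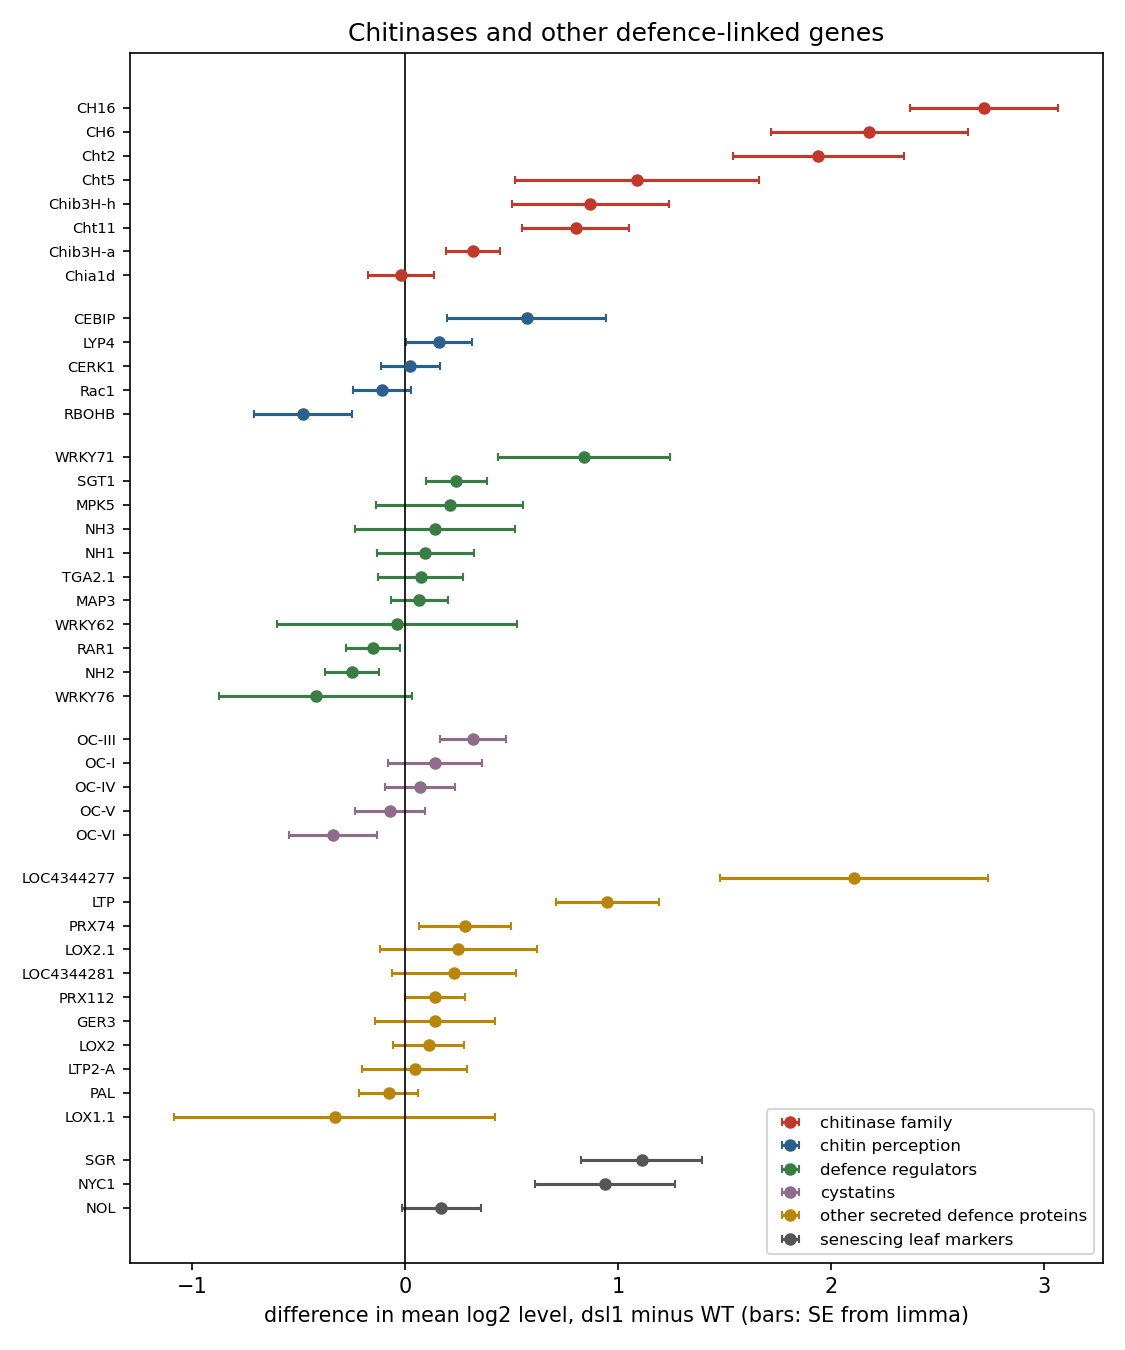
Difference in mean log2 level, dsl1 minus WT (horizontal axis; points are genes, bars the SE from limma), for the 8 chitinase family genes, for the 32 genes of 4 lists of chitin perception and defence, and for the 3 senescing leaf markers. CH16, CH6 and Cht2 lie at 1.94 to 2.72, CERK1 lies at 0.023, and LOC4344277, listed as a peroxidase, lies at 2.11. The group labelled other secreted defence proteins also holds enzymes inside the cell, such as PAL and LOX2.

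Markers of other tissues were read beside the family. Genes of chlorophyll breakdown, taken as markers of senescing leaf, were higher in dsl1 in 3 of 3 cases, against 53% of all genes. Their median difference was 0.94. The log2 level averaged over the 3 genes was 8.17 to 8.74 in the dsl1 arrays and 7.46 to 7.90 in the WT arrays, without overlap. Gene by gene only SGR was free of overlap, and 15% of all genes had dsl1 values wholly above the WT values. For NYC1, WT replicate 1 (9.87) lay above dsl1 replicate 1 (9.83). For NOL, WT replicate 1 (8.58) lay above the highest dsl1 value (8.49). SGR, which starts chlorophyll breakdown, was at 6.19, 7.11 and 6.07 in dsl1, against 5.25, 5.24 and 5.54 in WT (limma adjusted p = 0.284). NYC1, a chlorophyll b reductase, differed by 0.94 (limma adjusted p = 0.368) and NOL, its partner, by 0.17. Their part in the chitinase values was not tested. The chlorophyll-binding genes CAB1R and CAB2R, markers of greening leaf, averaged 8.11 to 8.69 in dsl1 and 8.61 to 8.96 in WT, and the casparian strip gene CASP1, a root marker, stood at 4.30 to 4.76 in dsl1 and 4.46 to 4.80 in WT. In whole apices, a change in the number of cells of one type and a change in RNA per cell cannot be told apart.

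The position of the members in the genome was described through their neighbours in the reference assembly, taking the 3 nearest measured genes on each side. These 37 genes had a median difference of -0.032, with 17 higher and 20 lower in dsl1, and 0 passed limma over all clusters. An unadjusted p under 0.05 was reached by 4 on the higher side, against 6.06% of all clusters and 9.46% of all genes, and by 3 on the lower side, against 5.7% and 5.52%. Those named next were chosen after their values were seen. FTSH1, of the FtsH family of membrane proteases and directly beside CH6 in the gene order, was at 9.10, 8.95 and 8.92 in dsl1, against 8.16, 8.35 and 8.30 in WT, a difference of 0.72 (SE 0.128, limma adjusted p = 0.208). Its groups did not overlap. On the other side of the CH6 and CH16 pair, the nearest measured gene, listed as Q-enzyme, a name of starch branching enzyme, differed by -0.058 (SE 0.129). CEBIP, described above, lies 4 steps from Cht11 in the gene order. LOC4331517, 3 steps away in the gene order on the other side, was at 6.48, 6.51 and 6.52 in dsl1, against 6.98, 7.39 and 7.20 in WT, a difference of -0.69 (SE 0.144, limma adjusted p = 0.239). Of the 6 neighbours of Cht11, 5 were higher and 1, LOC4331517, was lower, and of the 6 around the CH6 and CH16 pair, 3 were higher and 3 lower. Among the 37 neighbours LOC4351185, 2 steps from Chib3H-h in the gene order, had the highest difference, 1.5 (SE 0.533, limma adjusted p = 0.376), at 5.56, 6.11 and 4.29 in dsl1, against 3.48, 4.67 and 3.32 in WT, with overlapping groups.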

How the data were processed

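Total RNA from 3 dsl1 and 3 WT samples of rice shoot apices was labelled with biotin and hybridised to 1 whole-transcript array each, per the labels' protocols. The deposited values are log2 levels of 54922 transcript clusters. They were made with Affymetrix Expression Console 1.3, per the submitters' processing notes; how background was corrected, arrays normalised and probes summarised, and on which genome build, is not recorded in the labels or file header. Array medians of the deposited log2 values lay between 5.30 and 5.40, and they were used without further scaling. Of the value columns, 0 lacked a sample. No pair of arrays had equal values in more than 34 clusters. The number of arrays limits the precision, and with no record of separate cultures or plants behind the samples, p-values reflect a spread that may be technical.

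The platform's gene table lists 15829 clusters with 1 gene, all matched to the rice reference (ASM3414082v1) by gene identifier, 440 with several, and 38653 clusters are unnamed here. The cluster with the highest mean stood for a gene. The reference gave names and gene order only. A common name was found for 1731 genes. dsl1 was compared with WT by limma 3.58.1 in R 4.3.3 (lmFit, eBayes, 2-sided, no block), with Benjamini-Hochberg adjustment over all clusters and calls at 0.05. In a simulation of dsl1 against WT with 54922 clusters, 40% of clusters with a log2 change of 1 and 96% of those with a change of 2 were called. There were 15 false calls. The simulation drew independent normal noise from limma's own variance estimates and set changes of 1 to 4 in some clusters. Its shares are therefore no measure of the power in these arrays, where CH16, at a difference of 2.72, was not called over all clusters.

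The members, lists and tests were chosen with earlier results of these data known. Lists written from descriptions found no genes, since the reference holds no descriptions, and the 1 gene that the PR-10 list matched by symbol was not measured. Lists of beta-1,3-glucanases, thaumatin-like, PR-1 and PR-10 proteins, defensins, protease inhibitors, class III peroxidases, phenylalanine ammonia-lyases, xylanase inhibitors and further chitinases thus have 0 measured genes. Genes of such kinds can still be among those measured, such as the peroxidase PRX74 and Chib3H-a, listed under names of xylanase inhibitors. The lists of cystatins and of other defence proteins and enzymes were added from names after the annotation was seen. Each set of tissue markers holds only the genes of a longer planned list that were found by name and measured. Matches to an endo-1,4-glucanase and an actin were removed. Named genes were all members, the 3 genes with the smallest p and the brightest gene of each list, and the nearest profiles; any other gene is marked as picked once its value was known. Alternatives were other scaling (quantile, median), no clusters from the dimmest 33.3%, 2 reduced feature sets, array weights, a trended or robust prior, the replicate block, a log2 fold minimum of 1 and leaving out each array.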

Additional observations from a re-analysis of the deposited data

How the results depend on the processing

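In limma, 1 of the 8 chitinases, CH16, passed in the fit of the 15829 clusters with 1 gene and the fit that starts at the first cluster paired with a gene (adjusted p = 0.0251 and 0.0444), and 0 passed under the other alternatives run. Both fits test fewer clusters, and in them 59 and 36 clusters were higher and 16 and 16 lower, against 8 and 6 in the comparison of all clusters. Over all alternatives the adjusted p of CH16 ran up to 0.372, without dsl1 replicate 1. Only 4 of the 8 members, CH16, CH6, Cht2 and Cht5, were bright enough to enter the fit without the dimmest 33.3% of clusters. With 1 array left out, 0 to 4 clusters were higher and 0 to 4 lower, and 0 chitinases passed. The replicate numbers showed no pairing of the samples: deviations of same-numbered arrays correlated at -0.0644, -0.1251 and -0.0516, and no sample correlated best with its own number. Correlations were positive for dsl1 replicates 1, 2 and 3 with WT replicates 2, 3 and 1, at 0.1802, 0.1983 and 0.1172. Deviations from a mean of 3 arrays sum to 0, so these values say little about pairing. A pairing under other numbers was not tested. With the replicate block 1 cluster was higher and 0 lower. The list genes gave 0 calls under every alternative run. The median difference of the family was 0.83 to 1.24 with 1 array left out, 0.98 and 0.99 after quantile normalisation and median centring, and 1.09 without Chib3H-a. Of 64 values of single members under alternatives, 61 kept their direction and 3 changed sign, all of Chia1d. The difference of Chia1d was 0.0177 after quantile normalisation and, with 1 array left out, -0.116 to 0.112. Leaving out 1 of 3 arrays cannot move a difference beyond the spread between replicates, so sizes were not judged against that spread. Cht5 kept its direction but ran from 0.68 to 1.82 with 1 array left out. Averaging the clusters of a gene changes nothing, since each member had 1. Chib3H-a is limited by its brightness, near the dimmest clusters.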
